A study of Mus musculus with 8 samples.

Results

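The enzymes of cholesterol and fatty acid synthesis, with the proteins that control them, were examined in CD4+ T cells from mouse spleen. The set held 29 genes, chosen by symbol for their place in these pathways, out of 54532 genes in the deposited table. They comprised 6 genes of the mevalonate pathway, 11 of squalene and sterol synthesis, 5 of sterol sensing and transfer, and 7 of fatty acid synthesis. All 29 had a row in the table and all 29 passed the low-count filter, which kept 13981 genes in all. Of the 8 libraries, 4 came from wild-type (WT) cells given dimethyl succinate for 3 days and 4 from WT cells given vehicle, which the column names of the deposited table call DMSO. The series concerns succinate and the entry of CD4+ T cells into the fibrotic kidney, and the comparison asks what the ester did to gene expression in these cells. Succinate belongs to the mitochondrial citrate cycle, and its dimethyl ester crosses cell membranes. The dose, the setting of the treatment, the animals' age and the mouse or culture behind each library are not stated in the sources used here. The p-values below therefore measure the spread between these libraries, which may be technical.

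Cells build cholesterol and fatty acids from acetyl-CoA, which ATP citrate lyase makes in the cytosol from citrate exported by mitochondria. The mevalonate pathway turns acetyl-CoA into isoprenoid units, these are joined into squalene, and squalene is closed into lanosterol and trimmed to cholesterol. The transcription factors SREBP1 and SREBP2, encoded by Srebf1 and Srebf2, switch on these enzymes when sterols are scarce, after SCAP has escorted them out of the endoplasmic reticulum. INSIG proteins hold SCAP back when sterols are plentiful. T cells that divide after activation depend on this programme for new membrane.

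The libraries held between 13407295 and 16688854 counts. Between 0.311% and 0.331% of them fell on the 29 genes. The 7 markers of CD4+ T cells summed to 2071 to 2127 CPM (counts scaled to a common library size with TMM factors) under dimethyl succinate and 1699 to 2166 CPM under vehicle. Cd4 itself averaged 471 ± 15.5 CPM under dimethyl succinate and 415 ± 65.5 CPM under vehicle (SD, n = 4), where vehicle replicate 4 held 317 CPM. Cd8a, a chain of the CD8 co-receptor, averaged 1.08 ± 0.214 CPM under dimethyl succinate and 0.868 ± 0.163 CPM under vehicle (SD, n = 4). The 2 markers of CD8+ T cells, Cd8a among them, summed to more, 5.85 to 7.54 CPM under dimethyl succinate and 5.50 to 5.98 CPM under vehicle. Markers of B cells, myeloid cells, dendritic cells, natural killer cells and erythroid cells summed to at most 14.2 CPM per list in any library, and 6 adipocyte markers to at most 0.192 CPM. Vehicle replicate 4 stood apart from the other libraries. Mitochondrially encoded genes took 0.252% of its counts, against 1.16% to 1.48% in the other 7, and its CD4+ T cell markers had the lowest sum, 1699 CPM. Log2 ratios that moved by over 1.5 times or changed sign without this library are given both ways.

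The promoters of these genes were searched for letters known to bind the factors named above. RefSeq promoter windows, 250 bases before to 50 after each start on GRCm38.p6, were found for 23 of the 29 genes, 29 windows in all. Both strands were searched for the sterol regulatory element written as TCACNCCAC, for the CCAAT box bound by NF-Y, a partner of SREBP, and for the E-box CACGTG. The sterol element was found in 1 of 29 windows, that of Hmgcs1, against 1.24% of 32851 promoters. A stricter 10-base form of it was found in 0 of 29, against 0.0913% of all promoters. A CCAAT box was found in 21 of 29 windows, from 20 of the 23 genes, against 37.4% of all promoters. An E-box was found in 6 of 29 windows, from 5 of the 23 genes, against 7.15% of all promoters. The windows of Scap overlap and hold the same E-box. Only exact letters were searched, so a window without a match may still hold a near match to the sterol element. A match describes the letters and is not a measured binding site. The 250 bases before the RefSeq start are shown for Hmgcs1, the 1 gene with an exact match to the sterol element, and for Fasn and Srebf2. The listed gene of Srebf2 begins at chr15:82147181, within its stretch, so the end of that stretch lies inside the listed gene. Fasn and Srebf2, which encodes SREBP2, had the smallest unadjusted p without vehicle replicate 4 among genes with 1 window and a motif match. Capitals mark the sterol element and the CCAAT boxes on either strand, written ATTGG where the box lies on the opposite strand. The windows are, on GRCm38.p6, chr13:119690101-119690350 on the plus strand for Hmgcs1, chr11:120824548-120824797 on the minus strand for Fasn and chr15:82147019-82147268 on the plus strand for Srebf2, each read 5′ to 3′ along its gene.
Hmgcs1: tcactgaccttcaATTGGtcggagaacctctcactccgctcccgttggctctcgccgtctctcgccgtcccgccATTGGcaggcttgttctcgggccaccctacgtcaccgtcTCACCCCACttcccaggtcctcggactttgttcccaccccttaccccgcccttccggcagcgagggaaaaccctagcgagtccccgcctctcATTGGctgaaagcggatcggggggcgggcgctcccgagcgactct
Fasn: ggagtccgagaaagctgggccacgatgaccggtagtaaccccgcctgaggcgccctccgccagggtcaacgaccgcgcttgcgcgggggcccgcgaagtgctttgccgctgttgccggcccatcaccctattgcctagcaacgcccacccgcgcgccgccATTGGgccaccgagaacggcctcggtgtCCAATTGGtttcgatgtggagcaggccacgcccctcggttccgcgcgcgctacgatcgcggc
Srebf2: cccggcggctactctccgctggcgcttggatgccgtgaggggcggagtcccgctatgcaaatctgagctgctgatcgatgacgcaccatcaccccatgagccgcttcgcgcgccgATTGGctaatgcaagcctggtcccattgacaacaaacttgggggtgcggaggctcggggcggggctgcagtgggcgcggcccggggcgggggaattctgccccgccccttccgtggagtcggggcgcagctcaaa
Hmgcs1 carried 1 sterol element and 3 CCAAT boxes in this stretch, Fasn carried 3 CCAAT boxes, a pair of which overlap, and Srebf2 carried 1.

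Transcripts of the pathway were present in every library, from 0.548 to 69.7 FPKM as means over the 8 libraries. FPKM values, which the authors deposited and which divide a count by library size and listed gene length, are used to compare genes. The listed length can take in all annotated exons of a gene, as the 10787 bases of Lss do. Where the transcript present is shorter, FPKM understates the gene. Lss had 8533 counts over the 8 libraries and Sqle, with 5546 listed bases, had 10342. Srebf2 was the most abundant, at 71.8 ± 5.09 FPKM under dimethyl succinate and 67.7 ± 1.42 under vehicle (SD, n = 4). Acly, ATP citrate lyase, averaged 67.3 ± 0.980 FPKM under dimethyl succinate and 66.0 ± 1.84 under vehicle. The desaturase gene Scd2 followed, with a mean over the 8 libraries of 54.8 FPKM, and then the fatty acid synthase gene Fasn, with 47.3 FPKM. Cyp51, lanosterol demethylase, was the most abundant sterol enzyme, at 40.7 FPKM over the 8 libraries. The other enzymes of squalene and sterol synthesis were lower, down to 1.51 FPKM for Tm7sf2. Sqle, squalene epoxidase, averaged 15.3 FPKM, Lss, lanosterol synthase, 6.49 FPKM and Hsd17b7, which reduces a sterol ketone, 5.35 FPKM. Of the genes for stearoyl-CoA desaturase, which puts the double bond into oleate, Scd2 was the abundant one. Its FPKM exceeded that of Scd1 by 84.8 to 122 times across the dimethyl succinate libraries and 90.5 to 111 times across the vehicle libraries. The 2 genes share few stretches, with 2.97% of the 50-base windows of Scd1 transcripts also present in Scd2. Srebf2 exceeded Srebf1 by 2.02 to 2.17 times under dimethyl succinate and 1.79 to 2.09 times under vehicle.

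Fdps, farnesyl diphosphate synthase, was listed at only 0.691 FPKM over the 8 libraries, far below the enzymes on either side of it, Idi1 at 16.0 FPKM and Fdft1 at 18.9 FPKM. Its gene (ENSMUSG00000059743, chr3:89093588-89101959, minus strand, GRCm38) shares 26.2% of its 50-base windows with transcripts of other genes. Gm43738, listed as protein-coding on the same strand, holds 23.4% of the Fdps windows and was given 8 counts over the 8 libraries. The processed pseudogene Gm3571 on chromosome 10, which holds 12.1% of the Fdps windows, was given 914 counts over the 8 libraries, against 352 for Fdps itself. The counting of reads that match both was not stated, so the Fdps level is uncertain. Idi1 shares 25.3% of its windows, mainly with the pseudogene Gm13502, which was given 162 counts against 6833 for Idi1. Acaca shares 30.4%, mainly with the pseudogene Gm5182, which was given 1483 counts against 9725 for Acaca. These levels are uncertain for the same reason, but here, unlike for Fdps, the pseudogene held fewer counts than the gene. Fdft1 shares 26.5%, of which 17.2% lie in Ctsb, a gene transcribed the other way. No source says whether reads were assigned by strand. The shared part was 11.6% for Hmgcs1, 9.96% for Scap, 9.87% for Tm7sf2 and 6.13% for Acss2, and at most 4.56% for each other member.

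**Figure D1:**
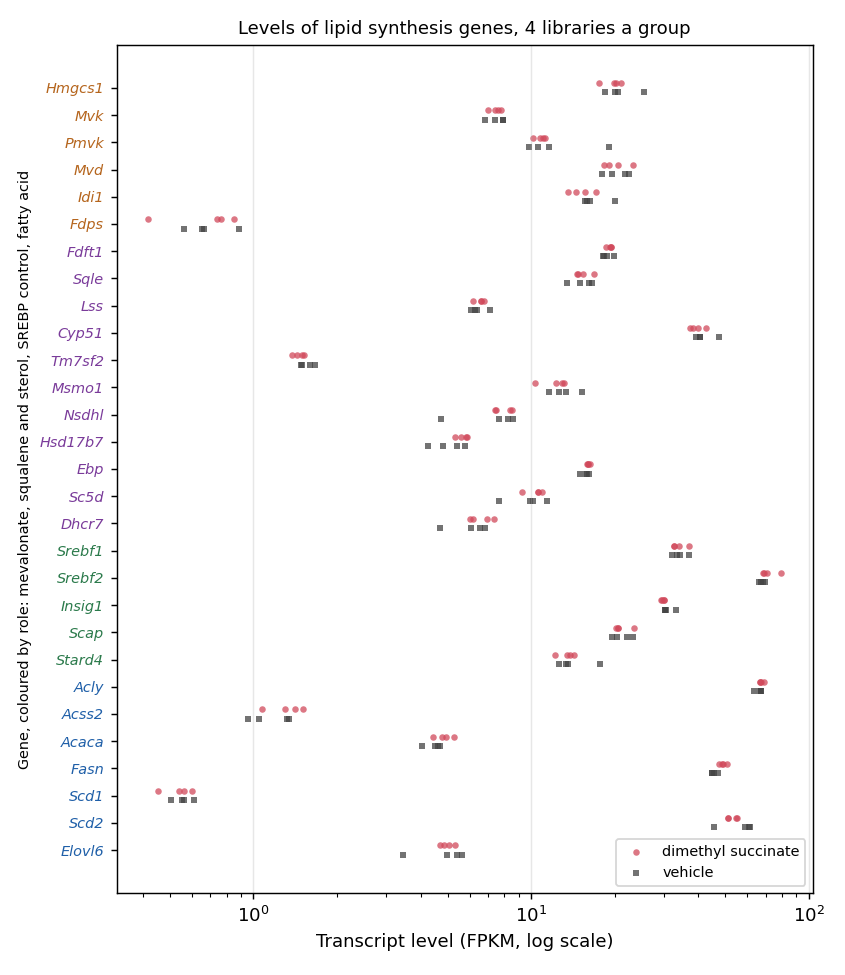
Each row is a gene and each point a library, with the level in FPKM on a log axis; circles are the 4 dimethyl succinate libraries and squares the 4 vehicle libraries. Srebf2, Acly, Scd2 and Fasn lie at the right, Scd1 and Fdps at the left, and the groups lie close together for each gene compared with the distance between genes.

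No gene of the set passed the test between the groups. In bulk RNA, fewer cells of a type and less RNA per cell cannot be told apart. In edgeR's quasi-likelihood test, adjusted over all 13981 genes by the Benjamini-Hochberg method, 0 of the 29 passed 0.05, as did 0% of all genes tested. The adjusted p of the members ran from 0.802 to 0.999. At an unadjusted p below 0.05 there were also 0 of 29, against 5.76% of all genes. DESeq2 put 1 of the 29, Fasn, under that unadjusted level and limma-voom 0, and neither called a member after adjustment. The log2 ratios, given as dimethyl succinate over vehicle with their SE, ran from -0.24 for Pmvk to 0.19 for Acss2. Their median was 0.011, against -0.0011 over all genes. Of the 29, 17 lay above 0, where 49.6% of all genes did. In the authors' deposited table the lowest adjusted p of a member was 0.823, and Fasn, at 0.0417, was the 1 member with an unadjusted p below 0.05.

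The intervals show, for 1 gene at a time, how large a change these libraries could have missed. Like the p-values, they rest on the spread between these libraries, which may be technical. For 28 of the 29 genes the 95% interval of the fold change lay within 1.5-fold in either direction. Pmvk was the exception at 1.5-fold, with an interval from -0.63 to 0.14 on the log2 scale. Of the 8915 genes that averaged 10 CPM or more, 96.3% lay within 1.5-fold. With vehicle replicate 4 left out, 29 of 29 genes lay within 1.5-fold. Counts behind these values ran from 29 for Fdps to 8984 for Fasn in a single library.

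**Figure D2:**
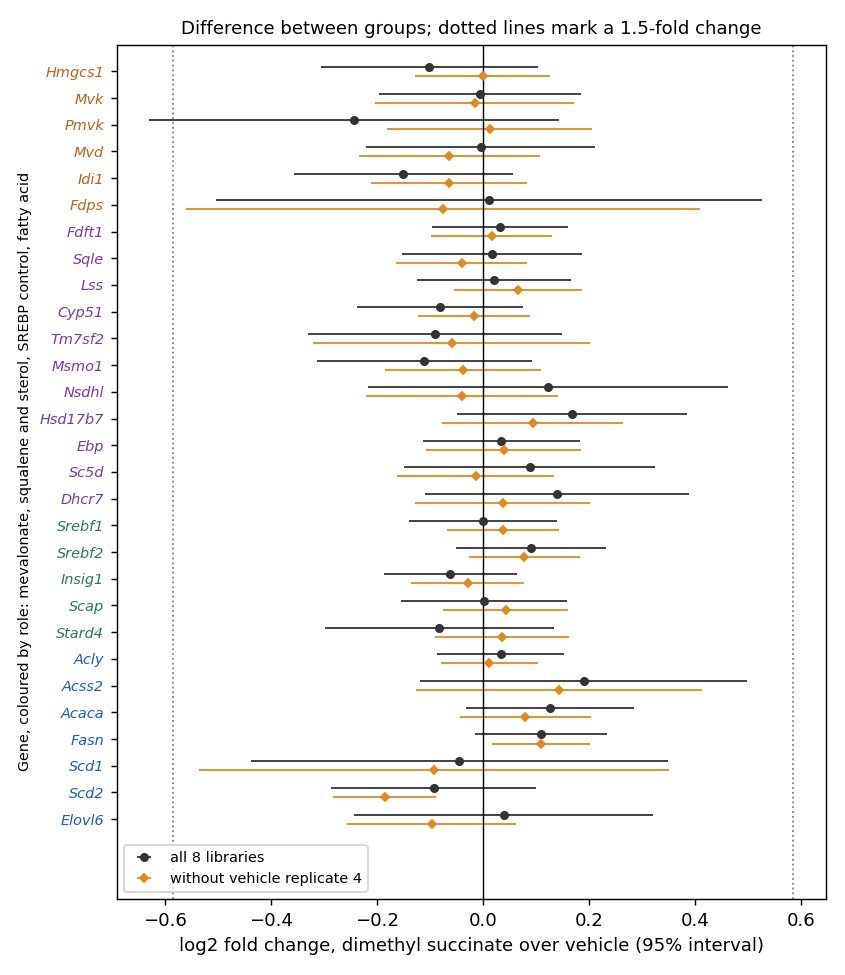
Points are log2 ratios of dimethyl succinate over vehicle and bars their 95% intervals, from all 8 libraries (circles) and without vehicle replicate 4 (diamonds). With all libraries every interval crosses 0; without vehicle replicate 4 those of Fasn (0.016 to 0.20) and Scd2 (-0.28 to -0.088) do not.

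The mevalonate genes, which carry acetyl-CoA to farnesyl diphosphate, had 5 of 6 log2 ratios below 0 and a median of -0.053, or 5 of 6 and -0.039 without vehicle replicate 4. None passed the test. Hmgcs1, the cytosolic HMG-CoA synthase that opens the pathway, stood at 81.3, 91.4, 93.4 and 98.0 CPM under dimethyl succinate, against 95.1, 92.7, 85.3 and 117 CPM under vehicle. The groups overlapped, and the highest value was vehicle replicate 4. The log2 ratio was -0.10 ± 0.095 (SE, n = 4 a group), or -0.00040 without that library. Idi1, which isomerises isopentenyl diphosphate, stood at 48.1, 51.0, 55.1 and 60.3 CPM under dimethyl succinate and 55.9, 57.2, 55.0 and 69.9 CPM under vehicle. Its log2 ratio of -0.15 ± 0.095 (SE) became -0.063 without vehicle replicate 4.

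Pmvk, phosphomevalonate kinase (ENSMUSG00000027952, chr3:89454541-89469013, plus strand, GRCm38), had the lowest log2 ratio of the set, -0.24 ± 0.18 (SE), and it rested on 1 library. It stood at 19.0, 17.4, 18.5 and 19.3 CPM under dimethyl succinate, and at 18.2, 19.99, 16.9 and 32.7 CPM under vehicle. Vehicle replicate 4 was the 32.7, and without it the log2 ratio was 0.012 ± 0.094 (SE). Mvk, mevalonate kinase, and Mvd, mevalonate diphosphate decarboxylase, had log2 ratios of -0.0056 ± 0.088 and -0.0043 ± 0.10 (SE), or -0.015 and -0.063 without vehicle replicate 4. Mvk averaged 20.1 ± 0.855 CPM under dimethyl succinate and 20.1 ± 1.44 CPM under vehicle (SD, n = 4). Fdps had 29 to 54 counts per dimethyl succinate library and 34 to 50 per vehicle library, and a log2 ratio of 0.011 ± 0.24 (SE), or -0.075 without vehicle replicate 4.

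Among the enzymes of squalene and sterol synthesis, 8 of 11 log2 ratios lay above 0, with a median of 0.032, or 5 of 11 and -0.014 without vehicle replicate 4. None passed the test. Sqle, squalene epoxidase, the first oxygen-requiring step, stood at 82.7, 81.4, 85.9 and 94.1 CPM under dimethyl succinate, against 92.0, 83.5, 90.0 and 74.4 CPM under vehicle. The groups overlapped, and the log2 ratio was 0.018 ± 0.079 (SE), or -0.040 without vehicle replicate 4. Cyp51 stood at 166, 176, 170.0 and 189.9 CPM under dimethyl succinate, against 174, 179.9, 179 and 210.1 CPM under vehicle, a log2 ratio of -0.081 ± 0.072 (SE) that was -0.016 without vehicle replicate 4. Fdft1, squalene synthase, and Ebp, a sterol isomerase, were the steadiest sterol genes. Ebp averaged 37.3 ± 0.493 CPM under dimethyl succinate and 36.4 ± 1.05 CPM under vehicle, and Fdft1 averaged 81.3 ± 1.65 CPM under dimethyl succinate and 79.5 ± 3.24 CPM under vehicle (SD, n = 4). The log2 ratio of Fdft1 was 0.032 ± 0.059 (SE), or 0.016 without vehicle replicate 4.

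The late sterol enzymes included 3 with a wide spread in the vehicle group. Nsdhl, a sterol dehydrogenase (ENSMUSG00000031349, chrX:72918557-72958514, plus strand, GRCm38), stood at 21.5, 24.1, 24.4 and 21.3 CPM under dimethyl succinate, against 23.7, 24.8, 22.0 and 13.5 CPM under vehicle. Dhcr7, the reductase of the last step to cholesterol, stood at 43.0, 36.0, 40.7 and 35.4 CPM under dimethyl succinate, against 40.0, 35.4, 38.1 and 27.3 CPM under vehicle. Sc5d, a sterol desaturase, stood at 45.5, 53.5, 52.1 and 51.9 CPM under dimethyl succinate, against 48.3, 49.8, 55.8 and 37.1 CPM under vehicle. In each the lowest library was vehicle replicate 4. Their log2 ratios of 0.12, 0.14 and 0.088 became -0.040, 0.037 and -0.014 without it. Hsd17b7 had the highest log2 ratio of the sterol enzymes, 0.17 ± 0.10 (SE), or 0.094 ± 0.083 without that library. Msmo1, a sterol methyl oxidase, and Tm7sf2, a sterol reductase, had log2 ratios of -0.11 ± 0.094 and -0.090 ± 0.11 (SE), or -0.037 and -0.059 without it. Lss had 0.021 ± 0.067 (SE), or 0.067 without it.

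None of the genes of sterol sensing and transfer passed the test, with log2 ratios from -0.082 to 0.091, 3 of 5 above 0 and a median of 0.00064. Without vehicle replicate 4, 4 of 5 lay above 0 and the median was 0.037. Srebf2 (ENSMUSG00000022463, chr15:82147181-82205379, plus strand, GRCm38) stood at 575, 497, 511 and 497 CPM under dimethyl succinate, against 494, 484, 499.6 and 475 CPM under vehicle. The groups overlapped, and the highest value was dimethyl succinate replicate 1. The log2 ratio was 0.091 ± 0.066 (SE), and edgeR's quasi-likelihood test gave an adjusted p of 0.808. Without dimethyl succinate replicate 1 it was 0.042, the lowest value with any 1 library left out. That library was also the highest of the 8 for Srebf1, at 210.1 CPM, and for Scap, at 177 CPM. The other dimethyl succinate libraries held 185 to 193 CPM of Srebf1 and 152 to 154 CPM of Scap, and the vehicle libraries 182 to 208 CPM of Srebf1 and 146 to 172 CPM of Scap.

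Insig1, which retains SCAP in the endoplasmic reticulum and is itself a target of SREBP, was lower in each dimethyl succinate library than in any vehicle library, by a small margin. It stood at 93.8, 90.8, 91.8 and 93.5 CPM under dimethyl succinate, against 94.4, 94.97, 93.8 and 103 CPM under vehicle. The highest dimethyl succinate library and the lowest vehicle library differed only beyond the digits shown. In FPKM the dimethyl succinate libraries stood at 29.2 to 30.1 and the vehicle libraries at 30.2 to 33.3. The log2 ratio was -0.061 ± 0.058 (SE), or -0.029 ± 0.052 without vehicle replicate 4. Of the 29 genes, 2 had groups that did not overlap, against 4.82% of all genes tested. They were Fasn, the 1 gene that was higher, against 2.5% of all genes, and Insig1, the 1 that was lower, against 2.32%. Stard4, which moves cholesterol between membranes, had a log2 ratio of -0.082 ± 0.10 (SE) that was 0.036 without vehicle replicate 4, where it reached 98.9 CPM against 68.7 to 80.5 CPM in the other libraries.

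In fatty acid synthesis 5 of 7 log2 ratios lay above 0, with a median of 0.039, or 4 of 7 and 0.012 without vehicle replicate 4. Fasn, the multi-domain fatty acid synthase (ENSMUSG00000025153, chr11:120805846-120824547, minus strand, GRCm38), stood at 560.5, 536, 524 and 541 CPM under dimethyl succinate, against 516, 493, 493 and 500.0 CPM under vehicle. The 4 dimethyl succinate libraries lay above the 4 vehicle libraries. The log2 ratio was 0.11 ± 0.057 (SE), a fold of 1.08, where edgeR's quasi-likelihood test gave an unadjusted p of 0.0787 and an adjusted p of 0.802. Leaving out each library in turn kept the log2 ratio between 0.094 and 0.13, and without vehicle replicate 4 it was 0.11 ± 0.045 (SE) with an unadjusted p of 0.0230 and an adjusted p of 0.493.

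Scd2 (ENSMUSG00000025203, chr19:44293676-44306864, plus strand, GRCm38) had a log2 ratio below 0. Unlike that of Fasn, this ratio moved further from 0 without vehicle replicate 4. Scd2 stood at 281, 279, 302 and 301 CPM under dimethyl succinate, against 321, 335, 336 and 248 CPM under vehicle. The lowest of the 8 was vehicle replicate 4, and the other 3 vehicle libraries lay above the 4 dimethyl succinate libraries. With all libraries the log2 ratio was -0.093 ± 0.089 (SE). Without vehicle replicate 4 it was -0.19 ± 0.047 (SE), with an unadjusted p of 0.000591 and an adjusted p of 0.119, so it did not pass. In that fit of 14232 genes 0.197% passed 0.05, with 0.126% higher and 0.0703% lower, and 0 of the 29 did. At an unadjusted p below 0.05 there were 2 of 29, against 8.54% of all genes. Fasn was the higher one, against 4.43% of all genes, and Scd2 the lower one, against 4.12%. The groups did not overlap for 3 of 29, against 9.63%, with Fasn higher, against 4.99%, and Scd2 and Insig1 lower, against 4.64%.

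The enzymes that feed and follow fatty acid synthase had groups that overlapped with all libraries. Acly stood at 359, 354, 354 and 366 CPM under dimethyl succinate, against 356, 353, 357 and 334 CPM under vehicle, a log2 ratio of 0.033 ± 0.055 (SE), or 0.012 without vehicle replicate 4. Acaca, acetyl-CoA carboxylase, which makes malonyl-CoA, stood at 76.4, 90.2, 85.2 and 82.5 CPM under dimethyl succinate, against 81.0, 77.4, 79.1 and 68.9 CPM under vehicle. 3 of its dimethyl succinate libraries lay above the vehicle libraries and replicate 1 below 3 of them, with a log2 ratio of 0.13 ± 0.073 (SE), or 0.080 without vehicle replicate 4. Acss2, which makes acetyl-CoA from acetate, had the highest log2 ratio of the set, 0.19 ± 0.14 (SE), at 10.99 to 15.4 CPM under dimethyl succinate and 9.74 to 13.7 CPM under vehicle. Elovl6, an elongase of saturated fatty acids, averaged 32.3 ± 1.78 CPM under dimethyl succinate and 31.4 ± 6.41 CPM under vehicle (SD, n = 4). Its log2 ratio of 0.039 was -0.097 without vehicle replicate 4, which held 22.1 CPM. Scd1 stood at 2.20 to 2.94 CPM under dimethyl succinate and 2.43 to 2.96 CPM under vehicle, with a log2 ratio of -0.045 ± 0.18 (SE), or -0.092 without that library.

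**Figure D3:**
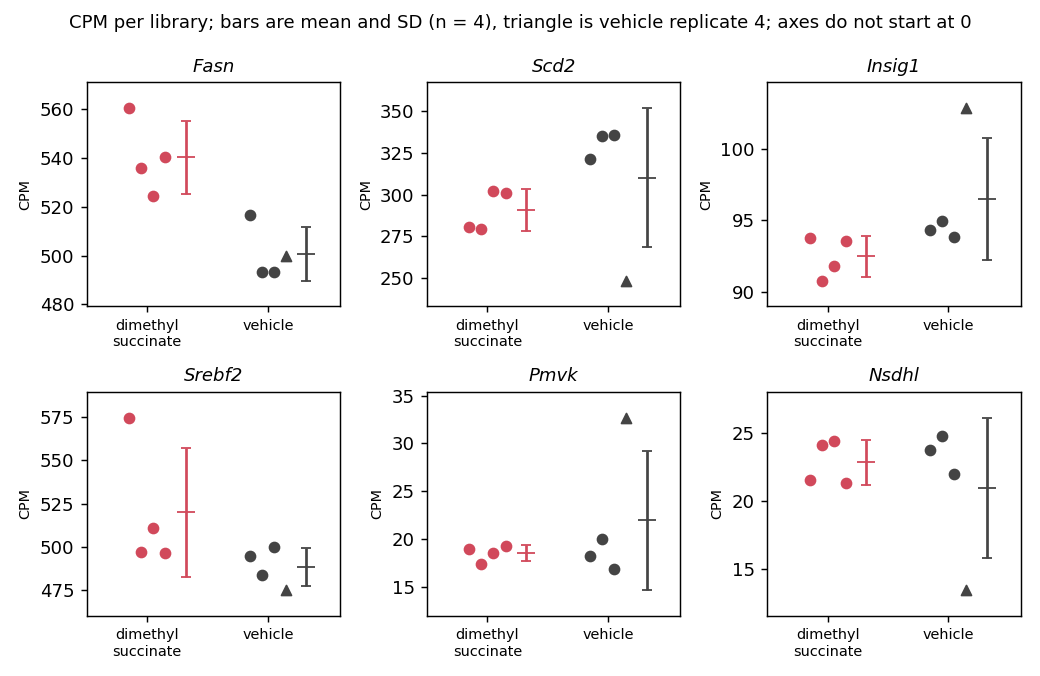
CPM of 6 genes by library, with the mean and SD of each group (n = 4) beside the points; vehicle replicate 4 is the triangle and the axes do not start at 0. Fasn lies higher in the 4 dimethyl succinate libraries, Insig1 lies lower by a margin smaller than the points, and in Scd2, Pmvk and Nsdhl the triangle sets the spread of the vehicle group.

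Vehicle replicate 4 lay at the end of the range for most members, in both directions, as it did for many genes. That library was the highest or the lowest of the 8 for 21 of the 29 genes, 9 highest and 12 lowest, or 72.4%, against 58.3% of all genes tested, of which 28.95% had it highest and 29.4% lowest. Among the mevalonate genes it was highest for Hmgcs1, Pmvk and Idi1, by 0.37, 0.83 and 0.32 in log2 CPM over the mean of the other 3 vehicle libraries, and lowest for Mvd, by -0.25. It was highest also for Cyp51, Msmo1, Lss, Tm7sf2, Insig1 and Stard4, and lowest for Srebf2. Among the sterol enzymes it was lowest for Nsdhl, Dhcr7, Sc5d, Hsd17b7, Sqle and Fdft1, where Nsdhl differed by -0.79 and Dhcr7 by -0.46. In fatty acid synthesis it was lowest for 4 of 7 genes and highest for 0, with Elovl6 at -0.64 and Scd2 at -0.41. This library was also the one low in mitochondrially encoded counts and in CD4+ T cell markers; the part of either in these values was not tested.

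The spread of the remaining libraries was small. The coefficient of variation of CPM had a median over the 29 genes of 6.64% in the dimethyl succinate group and 9.33% in the vehicle group, or 5.03% in the vehicle group without replicate 4. Dimethyl succinate replicate 1 was the next most extreme library, highest or lowest of the 8 for 12 of the 29 genes, 41.4%, against 33.1% of all genes. It was highest for Mvd, Dhcr7, Srebf1, Srebf2, Scap, Acss2 and Fasn and lowest for Hmgcs1, Idi1, Cyp51, Msmo1 and Stard4.

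**Figure D4:**
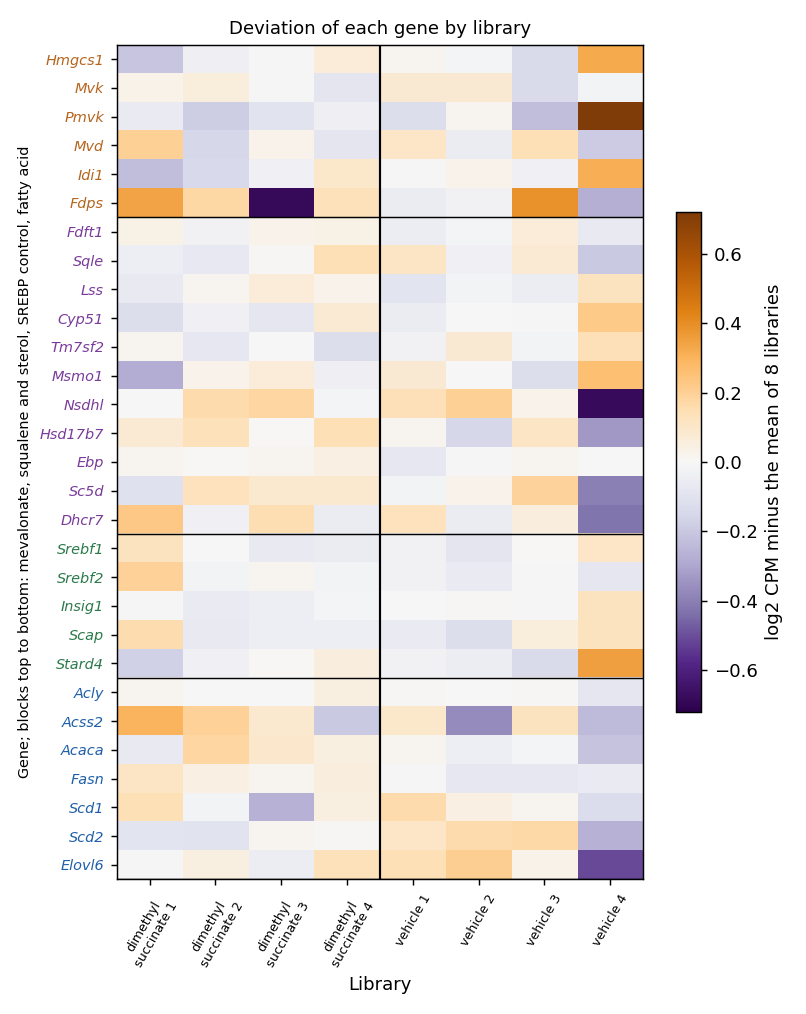
Each cell is a gene in a library, coloured by its log2 CPM minus the mean of the 8 libraries, with dimethyl succinate libraries left of the line and vehicle libraries right of it. The column of vehicle replicate 4 is the most coloured, high for Pmvk, Stard4, Hmgcs1 and Idi1 and low for Nsdhl, Elovl6, Dhcr7 and Sc5d. The dark cell of Fdps in dimethyl succinate replicate 3 rests on 29 counts.

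Genes beside these pathways were examined in 5 further lists, from each of which up to 4 genes with the smallest unadjusted p are described. No tested gene of these lists passed over all genes in edgeR's quasi-likelihood test. Of 9 other genes of sterol synthesis and 20 other genes of fatty acid synthesis and activation, 0 had an unadjusted p below 0.05 in either direction, against 2.93% of all genes higher and 2.83% lower. Their medians of log2 ratio were 0.023 and -0.0044. Acat2, which joins acetyl-CoA units before HMG-CoA is made, averaged 40.5 ± 5.38 CPM under dimethyl succinate and 43.3 ± 2.75 CPM under vehicle (SD, n = 4). Nus1, part of the enzyme that makes dolichol chains, had a log2 ratio of -0.074 ± 0.061 (SE). Tmem97, a sterol-regulated membrane protein, stood at 16.3 to 17.6 CPM under dimethyl succinate and 6.54 to 19.2 CPM under vehicle, where 6.54 was vehicle replicate 4. Idi2 stood at 0.575 to 1.16 CPM under dimethyl succinate and 0.224 to 0.827 CPM under vehicle. Elovl1, an elongase of very long chains, had a log2 ratio of 0.26 ± 0.16 (SE) that was 0.096 without vehicle replicate 4, and Acsl4, Dgat1 and Me1 had -0.11, -0.10 and -0.37, with SE of 0.084, 0.090 and 0.32. Without that library Acsl4 had -0.027 and Me1 -0.23.

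Of 11 further genes that act on SREBP or its partners, 1 lay higher with an unadjusted p below 0.05 and 0 lay lower, against 2.93% and 2.83% of all genes. This was Mtor, a kinase that promotes SREBP activity, at 128, 131, 139 and 122 CPM under dimethyl succinate, against 119, 114, 116 and 116 CPM under vehicle. Its groups did not overlap, as was so, with the same direction, for 2.5% of all genes. The log2 ratio was 0.16 ± 0.059 (SE) and edgeR's quasi-likelihood test gave an adjusted p of 0.802. Rnf139, a ubiquitin ligase of the endoplasmic reticulum, had a log2 ratio of -0.17 ± 0.091 (SE), or -0.22 ± 0.074 without vehicle replicate 4. Sirt1, a deacetylase, had a log2 ratio of -0.20 ± 0.098 (SE), or -0.10 without that library.

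Of 18 genes of sterol uptake, storage and export, 1 was higher and 3 lower at that unadjusted level, against the same 2.93% and 2.83%. Soat2, which esterifies cholesterol for storage, stood at 33.4, 28.1, 29.2 and 23.5 CPM under dimethyl succinate, against 39.7, 32.1, 36.7 and 32.7 CPM under vehicle. The groups overlapped, with a log2 ratio of -0.31 ± 0.11 (SE), or -0.34 ± 0.098 without vehicle replicate 4. Npc2, which hands cholesterol out of lysosomes, was lower in the 4 dimethyl succinate libraries, at 593 to 608 CPM, than in the vehicle libraries, at 627 to 748 CPM. Gramd1b, which carries cholesterol from the plasma membrane to the endoplasmic reticulum, was at 269 to 287 CPM under dimethyl succinate and 238 to 264 CPM under vehicle. Its log2 ratio was 0.16 ± 0.059 (SE), and that of Npc2 was -0.16 ± 0.069 (SE), or -0.10 without vehicle replicate 4. Apoe, a lipid carrier protein, stood at 14.9 to 16.9 CPM under dimethyl succinate and 16.995 to 26.2 CPM under vehicle, a log2 ratio of -0.35 ± 0.13 (SE), or -0.20 without that library. Adjusted p was 0.802 for each of these 4 genes in edgeR's quasi-likelihood test.

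Of 13 tested genes of fatty acid oxidation, the pathway that runs the other way, 3 lay higher with an unadjusted p below 0.05 and 0 lay lower, against 2.93% and 2.83% of all genes. Of the 13, 6 lay above 0, against 49.6% of all genes, with a median of -0.011. Ppard, a nuclear receptor that fatty acids activate, stood at 59.7, 57.0, 56.0 and 58.7 CPM under dimethyl succinate, against 46.7, 47.6, 51.7 and 38.3 CPM under vehicle. Its groups did not overlap, and the lowest library was vehicle replicate 4. The log2 ratio was 0.33 ± 0.088 (SE), where edgeR's quasi-likelihood test gave an unadjusted p of 0.00245 and an adjusted p of 0.715. Without vehicle replicate 4 it was 0.25 ± 0.065 (SE), with an adjusted p of 0.121. Cpt1a and Cpt2, which bring fatty acids into mitochondria, had log2 ratios of 0.19 ± 0.081 and 0.25 ± 0.11 (SE), or 0.15 and 0.19 without vehicle replicate 4. The groups of Cpt2 did not overlap and those of Cpt1a did. Without that library 1 of the 13, Ppard, lay higher at the unadjusted level. The counts were then 1 higher and 0 lower among the other sterol synthesis genes, 1 higher and 1 lower, Rnf139, among the SREBP control genes and 2 higher and 3 lower in uptake, storage and export, against 4.43% of all genes higher and 4.12% lower. Etfa, an electron carrier of beta-oxidation, had a log2 ratio of -0.20 ± 0.095 (SE), or -0.093 without it.

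**Figure D5:**
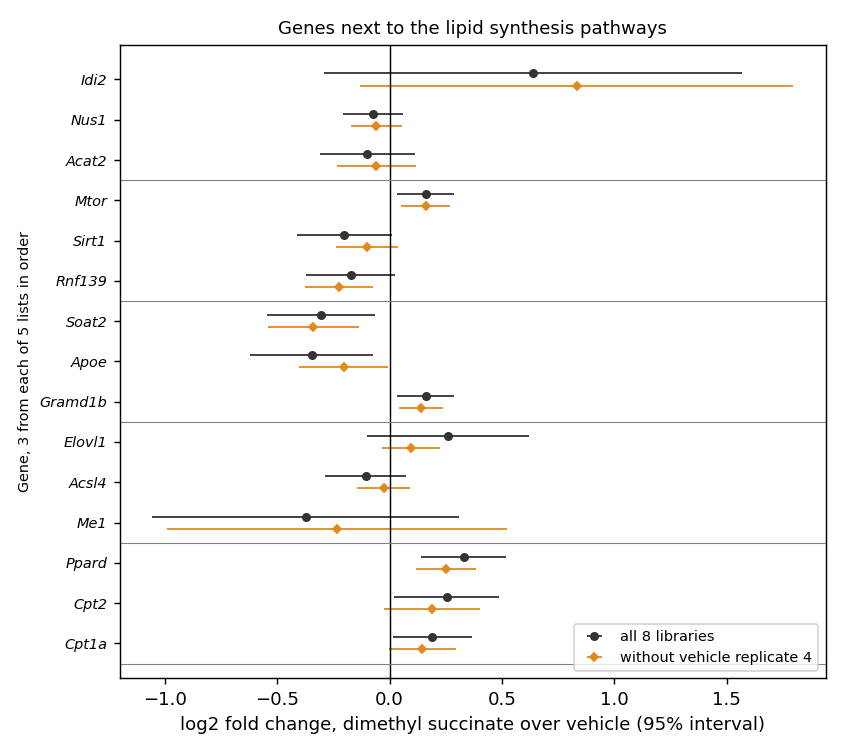
Points are log2 ratios of dimethyl succinate over vehicle and bars their 95% intervals, for the 3 genes of smallest unadjusted p in each of 5 lists, from top to bottom other sterol synthesis, SREBP control, sterol uptake and export, other fatty acid synthesis and fatty acid oxidation. Intervals of Ppard, Mtor and Gramd1b lie right of 0 and Soat2 and Apoe left of it in both fits, and no gene passed after adjustment.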

How the data were processed

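The authors deposited 1 table with raw counts per gene and library and with FPKM values, per the file headers. The authors' group means (a signal whose scale is not stated), log2 fold changes and p-values stood beside them, per the file headers, and of these only the log2 fold changes and p-values were read. RNA was taken with TRIzol and made into mRNA libraries, per the labels' protocols, and the submitters' processing notes name the aligner HISAT2 2.0.5. The counter, annotation and strand setting are not stated in the sources used here. Of 54409 genes matched to GENCODE M21, 99.17% had the same start or end, so coordinates are given as GRCm38.

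Counts were tested with edgeR 4.0.16 in R 4.3.3: filterByExpr (13981 genes), TMM factors, quasi-likelihood F test with robust dispersions, 4 dimethyl succinate against 4 vehicle libraries, no covariate, Benjamini-Hochberg over all genes, threshold 0.05, two-sided. Standard errors were derived from the F statistic, with 95% intervals. CPM used TMM-scaled library sizes, and log2 CPM a prior count of 2. Alternatives were DESeq2 1.42.0, limma-voom and limma-trend (3.58.1) on log2(FPKM + 1) and log2(FPKM + 0.1), other scaling, no or a stricter filter, the title number as a replicate block, and leaving out each library in turn. Every pair of libraries within a group lay further apart than counting error alone would put them (lowest chi-square per gene 2.11), so no library was taken as a copy of another. Members and gene lists were chosen with earlier results of these data known. The text names all 29 members, the markers Cd4 and Cd8a, and up to 4 genes per further list by smallest unadjusted p. A gene that this rule also picks is not reported here. Shared 50-base windows were counted exactly over GENCODE M21 transcripts.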

Additional observations from a re-analysis of the deposited data

Results flagged for a closer look

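In 6 of 58 groups of 4 libraries, 1 library lay far from the other 3 of its group, by a gap test that marks about 1 group in 20 by chance. In 5 of the 6 that library was vehicle replicate 4. It held 69.9 CPM of Idi1, where the nearest vehicle library held 57.2 CPM, and 210.1 CPM of Cyp51, where the nearest held 179.9 CPM. It held 103 CPM of Insig1, next to 94.97 CPM, 334 CPM of Acly, next to 353 CPM, and 248 CPM of Scd2, next to 321 CPM. The other was dimethyl succinate replicate 1, with 177 CPM of Scap where the nearest library of its group held 154 CPM. Vehicle replicate 4 also had the lowest share of mitochondrially encoded counts, 0.252%. The part of that in these values was not tested.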

How the results depend on the processing

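Of 490 member values under 17 alternative settings, 40 had the opposite sign to the value from all 8 libraries, and 0 members passed an adjusted p of 0.05 in any setting. Over all genes, 0 passed with the 8 libraries, 4 with DESeq2, 6 without a low-count filter, 1 with the replicate block and 0 to 28 with 1 library left out, where the 28 came without vehicle replicate 4. Members with an unadjusted p below 0.05 numbered 0, but 1 with DESeq2 and 0 to 2 with 1 library left out. The members' median log2 ratio of 0.011 ran from -0.013 to 0.041 with 1 library left out. With 1 library left out, the log2 ratios that changed sign ran over these ranges: Mvk -0.050 to 0.024, Pmvk -0.35 to 0.012, Mvd -0.074 to 0.043, Fdps -0.099 to 0.19, Sqle -0.040 to 0.060, Lss -0.0049 to 0.067, Nsdhl -0.040 to 0.21, Sc5d -0.014 to 0.17, Srebf1 -0.038 to 0.037, Scap -0.050 to 0.043, Stard4 -0.14 to 0.036, Scd1 -0.098 to 0.033 and Elovl6 -0.097 to 0.12. Outside these, 3 members close to 0 changed sign. Fdps had -0.021 with limma-voom, -0.0013 on log2(FPKM + 1) and -0.016 on log2(FPKM + 0.1). Srebf1 had -0.0029 with RLE factors and with DESeq2, -0.0046 on log2(FPKM + 1) and -0.0047 on log2(FPKM + 0.1). Scap had -0.0022 with RLE factors and with DESeq2, -0.0034 on log2(FPKM + 1) and -0.0035 on log2(FPKM + 0.1). The causes were not tested. Libraries with the same title number were weakly correlated in their deviations, from -0.014 to 0.13. Of the 4 dimethyl succinate libraries, 1 correlated best with its own number. Weak correlation over all genes cannot exclude a shared origin, so whether the numbers pair the libraries is not known. Values without vehicle replicate 4 for the further lists and for the overlap of groups were added after the data were seen. Depth limits Fdps and Scd1 most, with 29 to 54 counts per library, so a change in them below the width of their intervals was not detectable.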
